A study of Mus musculus with 7 samples.

Results

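The nuclear genes of oxidative phosphorylation were followed in mature white adipocytes from mice with and without adipocyte FFA2, the free fatty acid receptor encoded by Ffar2. The members were every gene outside the mitochondrial chromosome whose symbol starts with Nduf, Uqcr, Atp5 or Cox4 to Cox8, together with Sdha, Sdhb, Sdhc, Sdhd and Cycs, and without pseudogene symbols and Cox8b. This gave 98 gene identifiers with 97 symbols among the 57010 identifiers of the count table, and 93 of them had enough counts to be tested. The rule used gene names only and no measured value, but it was set with earlier results of these data known. The name rule leaves out Cyc1, a catalytic subunit of complex III, and takes in 8 assembly factors of complex I that are not part of the finished enzyme. Poly-A selected RNA was sequenced from 3 FFA2 fl/fl and 4 Adipoq-F2-KO male littermates. All 7 mice carried the floxed Ffar2 allele, were housed together on standard chow and were 20 weeks old, and the knockout mice carried in addition a Cre recombinase driven by the adiponectin promoter, which is active in fat cells. The adipocytes were freed from perigonadal fat with collagenase and each library came from 1 labelled sample, so a library is the unit of replication. The labels do not say outright that each sample was a separate animal, and the p-values measure the spread between these samples.

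Oxidative phosphorylation is carried out in the inner mitochondrial membrane by a chain of protein complexes. Complex I oxidises NADH and complex II oxidises succinate, both hand electrons to ubiquinone, complex III passes them on to cytochrome c and complex IV passes them to oxygen, while complex V uses the resulting proton gradient to make ATP. Most subunits are encoded in the nucleus and imported, and a small set of core subunits is encoded by mitochondrial DNA, so that the finished complexes need products of both genomes. White adipocytes hold few mitochondria beside brown adipocytes, and they use them for fatty acid synthesis and handling as well as for ATP.

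The libraries held between 30478997 and 39992605 counts assigned to genes. The targeted gene Ffar2 had 34.5 ± 2.77 normalized CPM in the controls (SD, n = 3) and 1.69 ± 0.634 in the knockout (SD, n = 4), with no overlap between libraries. Here and below, normalized CPM are CPM of the library size after TMM scaling, a correction for libraries of unequal composition. The defining markers of the cell type were abundant, with Adipoq between 2419 and 3762 normalized CPM in all 7 libraries. The mitochondrial chromosome accounted for 4.41 to 5.77% of the counts of FFA2 fl/fl libraries and for 6.61 to 10.3% of those of Adipoq-F2-KO libraries. The nuclear members together took between 0.985 and 1.09% of counts in FFA2 fl/fl and between 0.850 and 0.986% in Adipoq-F2-KO. Adipoq-F2-KO library 2 held transcripts of male germ cells, with a summed level of the 7 germ cell markers of 144 normalized CPM, and Adipoq-F2-KO library 4 had the lowest Adipoq and the highest mitochondrial share.

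No nuclear member was called between the genotypes, and most members lay slightly lower in Adipoq-F2-KO. In edgeR's quasi-likelihood test 0 of the 93 tested members had an adjusted p under 0.05, where 1.02% of the 17039 tested genes were called (0.217% lower and 0.798% higher). The smallest adjusted p of a member in edgeR was 0.111, for Ndufs7. At an unadjusted p under 0.05 there were 8 members (8.60%), 7 of them lower and 1 higher, against 17.9% of all genes (7.37% lower and 10.5% higher). DESeq2 and limma voom also called 0 members, and called 6.21 and 1.22% of the genes they tested. At an unadjusted p under 0.05 they had 12 members each. The share of all genes at that unadjusted threshold is not given for these 2 tools, so the 12 cannot be read against a background. An edgeR fit of all genes with at least 1 count called 0 members and 4.92% of genes. The count of 8 depended on single libraries. It was 1 without FFA2 fl/fl library 1, 4 without FFA2 fl/fl library 3, 5 without Adipoq-F2-KO library 2 and 16 without Adipoq-F2-KO library 3. The share of all genes at the unadjusted threshold is not given for these fits either.

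Most members lay slightly below 0, and so did, to a smaller extent, most genes with many counts. The fitted log2 fold change lay below 0 for 74 of the 93 members (79.6%), where 49.6% of all tested genes lay below 0, and the median was -0.09 over the members and 0.00 over all genes. For 20 members (21.5%) every Adipoq-F2-KO library lay below every FFA2 fl/fl library, where 8.72% of all tested genes did so, and for 1 member, Ndufa4l2, every knockout library lay above, where 8.86% of all genes did so. The background was higher among genes with many counts. Among the 8565 genes with a mean of at least 10 normalized CPM, a limit chosen after the values were seen, 20 of 80 members and 14.4% of all genes were lower without overlap. In that subset 67 of the 80 members and 58.1% of all genes had a log2 fold change below 0, with medians of -0.11 and -0.05. The members varied little between libraries. Their median coefficient of variation over all 7 libraries was 9.24%, against 19.9% over all tested genes. The members also had a higher median level, 71.6 normalized CPM against 10.1 over all tested genes, and variation was not compared at equal level. The median standard error of the members' log2 fold change was 0.10. The 95% interval of the log2 fold change lay within 0.5 of 0 for 78 of the 93 members, and its lower limit was above -1 for 90. A change to below a log2 fold change of -1 thus lay outside the interval for nearly all members, while changes of the size of the fitted values could not be told from no change after adjustment over all genes.

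**Figure D1:**
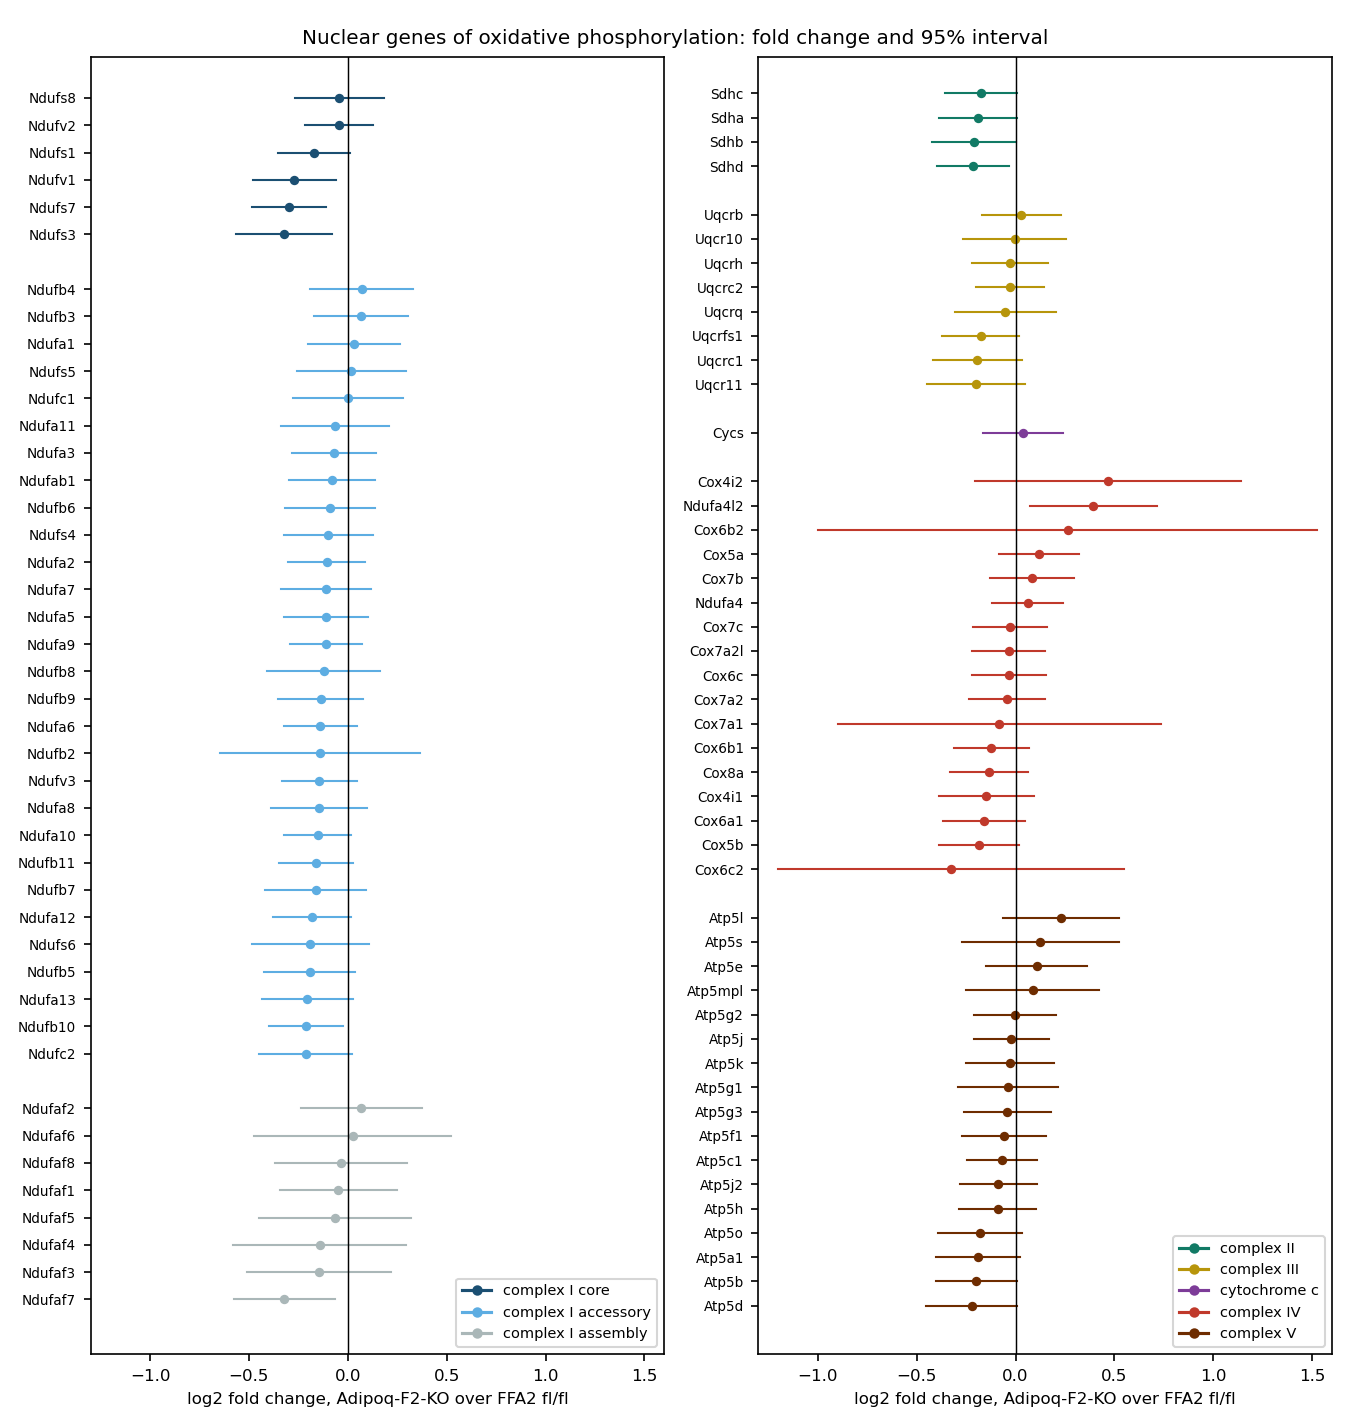
Log2 fold change of Adipoq-F2-KO over FFA2 fl/fl with its 95% interval from edgeR (horizontal axis) for 90 of the 93 tested members, grouped by complex and coloured by complex. Most points lie left of 0 and most intervals cross it, and the 4 genes of complex II sit close together. Ndufb4c and Ndufs6b were left out because their standard errors were above 0.6, and 1 further member is not shown.

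Complex I core subunits, which are conserved from bacteria and carry the electrons from NADH to ubiquinone, had the lowest median of the groups compared. Over all 38 tested subunits of complex I the median log2 fold change was -0.14, above that of complex II at -0.20. The median log2 fold change over the 7 nuclear core genes was -0.21. Ndufs7, the subunit that carries the last iron-sulfur cluster before ubiquinone, was 70.5, 65.6 and 71.3 normalized CPM in FFA2 fl/fl libraries 1 to 3 and 54.9, 55.7, 60.1 and 54.0 in Adipoq-F2-KO libraries 1 to 4. The 4 knockout libraries lay close together and all below the control libraries. Its log2 fold change was -0.30 ± 0.09 (SE), with an edgeR adjusted p of 0.111 that ranged from 0.051 to 0.362 over 14 alternative analyses. Ndufs3, a core subunit next to Ndufs7 in the arm that binds ubiquinone, was 78.5, 70.3 and 74.9 normalized CPM in FFA2 fl/fl against 62.3, 60.0, 67.3 and 48.8 in Adipoq-F2-KO. Knockout library 4 was the lowest and knockout library 3 came nearest to the controls. The fitted log2 fold change was -0.32 ± 0.11 (SE), with an edgeR adjusted p of 0.171.

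Ndufv1, the subunit that binds NADH and the flavin, was 163, 151 and 149.6 normalized CPM in FFA2 fl/fl against 135, 125, 139 and 112 in Adipoq-F2-KO. The libraries did not overlap, with a log2 fold change of -0.27 ± 0.10 (SE, edgeR adjusted p = 0.176). Ndufs1, an iron-sulfur subunit of the NADH-oxidising arm, was 108 ± 3.92 normalized CPM in FFA2 fl/fl (SD, n = 3) and 95.7 ± 4.84 (SD, n = 4) in Adipoq-F2-KO, again without overlap (edgeR adjusted p = 0.314). The margin was narrow, with 103.1 in the lowest control library, 2, and 102.9 in the highest knockout library, 1. Ndufv2 and Ndufs8, further core genes, overlapped, and are named after their values were seen. Their log2 fold changes were -0.05 ± 0.08 and -0.04 ± 0.10 (SE).

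The accessory subunits of complex I surround the core and are needed for its assembly and stability. Of 32 genes 31 were tested, 26 had a log2 fold change below 0 and 6 were lower without overlap, with a median of -0.12. Of all tested genes 8.72% were lower without overlap, and 14.4% of those with at least 10 normalized CPM. Ndufb10, a subunit of the membrane arm, was 130.4, 119 and 125 normalized CPM in FFA2 fl/fl against 116, 103, 108 and 104 in Adipoq-F2-KO. The highest knockout library stayed just under the lowest control library. Its log2 fold change was -0.21 ± 0.08 (SE), and its edgeR unadjusted p of 0.0291 became 0.225 after adjustment. Ndufc2 was 49.1 ± 1.19 (SD, n = 3) and 42.3 ± 4.89 normalized CPM (SD, n = 4), and Ndufa12 was 78.5 ± 4.23 and 69.2 ± 4.52, with edgeR adjusted p of 0.320 and 0.317. Ndufa2, the most abundant accessory gene per length, was 82.5 ± 1.41 and 76.7 ± 5.78 normalized CPM, and its knockout spread came from library 4 at 68.2 against 78.2 to 81.2 in the others. The remaining 2 without overlap, Ndufa10 and Ndufa6, are named after their values were seen and had log2 fold changes of -0.15 and -0.14. Ndufa2 and Ndufa6 were separated narrowly. Their lowest control libraries were at 81.58 and 66.05 normalized CPM, and their highest knockout libraries at 81.20 and 65.95. Ndufb4c and Ndufs6b stood below 1 normalized CPM in every library and their fitted changes of -0.39 ± 0.86 and 1.03 ± 0.95 (SE) carry no direction.

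Of the 8 assembly factors that carry Nduf symbols, 6 had a log2 fold change below 0, with a median of -0.06. Ndufaf7, a methyltransferase that acts during assembly of the complex, was 24.7, 20.9 and 23.1 normalized CPM in FFA2 fl/fl against 18.9, 18.5, 19.7 and 16.1 in Adipoq-F2-KO. The libraries did not overlap, with a log2 fold change of -0.32 ± 0.12 (SE, edgeR adjusted p = 0.185). Ndufaf3 at 18.7 ± 2.95 against 16.9 ± 3.09 normalized CPM and Ndufaf4 at 8.08 ± 1.53 against 7.31 ± 1.43 (SD, n = 3 and 4) overlapped widely.

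Complex II joins the citric acid cycle to the respiratory chain and is the sole complex with all of its subunits encoded in the nucleus. Its fold changes lay within the narrowest range of any complex, though it also has the fewest genes. All 4 genes were lower in Adipoq-F2-KO without overlap, with log2 fold changes between -0.22 and -0.17. Of all tested genes 8.72% were lower without overlap, and 14.4% of those with at least 10 normalized CPM. Sdha, the flavoprotein that oxidises succinate, was 594, 532 and 577 normalized CPM in FFA2 fl/fl against 500.3, 515, 523 and 453 in Adipoq-F2-KO. The gap between the groups was small, 532 against 523, and knockout library 4 was lowest. For Sdha the log2 fold change was -0.19 ± 0.09 (SE, edgeR adjusted p = 0.298). Sdhb, the iron-sulfur subunit, was 120.3, 124 and 134 normalized CPM against 114, 112, 116 and 94.2, with a log2 fold change of -0.21 ± 0.10 (SE, edgeR adjusted p = 0.287). Sdhc and Sdhd anchor the enzyme in the membrane and bind ubiquinone. Sdhc was 134, 125 and 132 normalized CPM against 119.6, 115, 119 and 107, and Sdhd was 89.9, 86.4 and 91.3 against 78.8, 74.6, 81.0 and 72.9. Sdhd had the smallest edgeR p of the complex, 0.024 unadjusted and 0.206 adjusted, and that of Sdhc was 0.300 adjusted. The summed level of the 4 genes was 938, 867 and 934 normalized CPM in FFA2 fl/fl against 812, 817, 839 and 727 in Adipoq-F2-KO, 0.875 of the control mean.

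**Figure D2:**
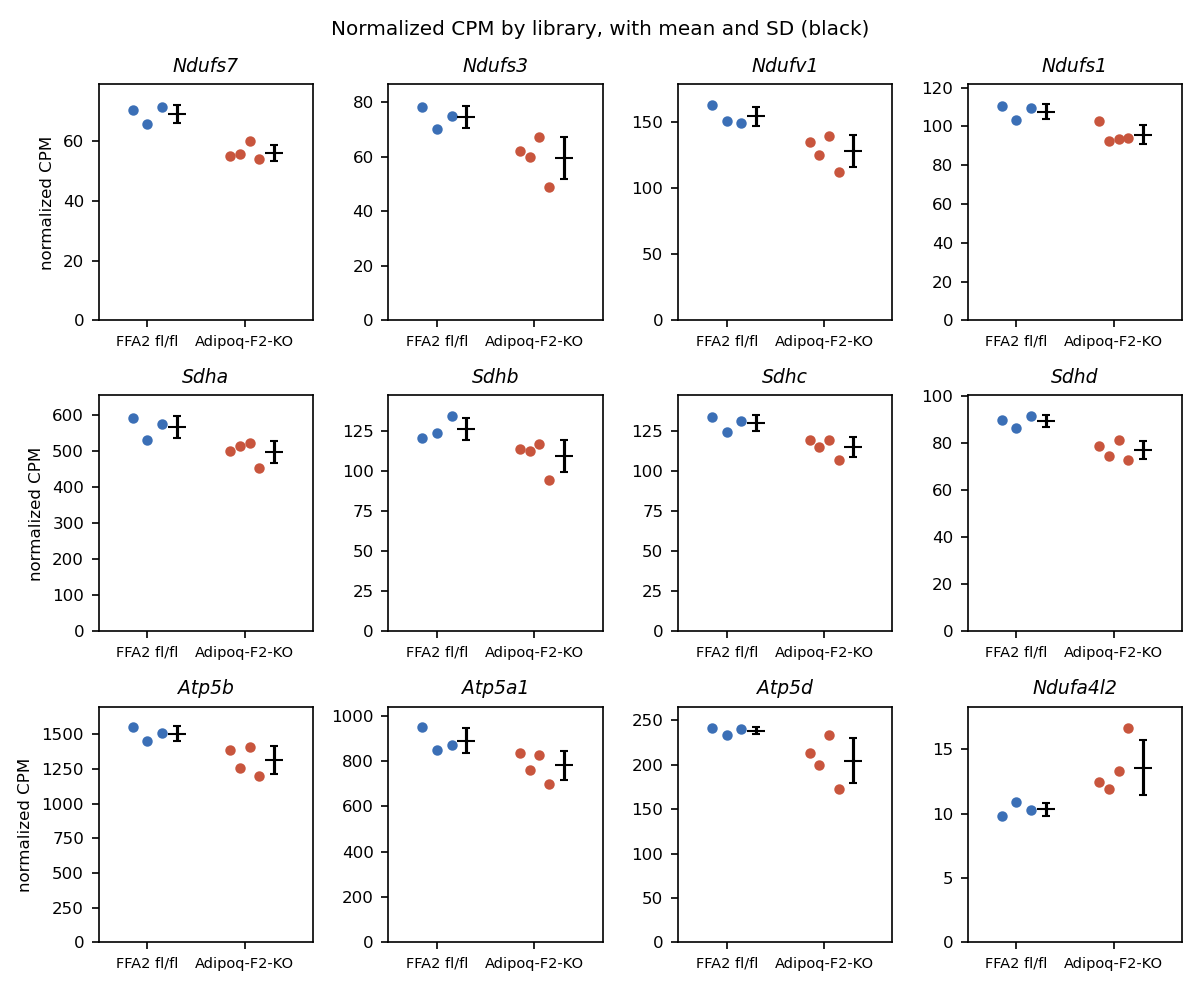
Normalized CPM (vertical axis, from 0) of 12 members in each library, with FFA2 fl/fl in blue, Adipoq-F2-KO in red and the mean with its SD in black. Every gene shown has no overlap between the groups. Of the 93 tested members 20 were lower and 1 was higher without overlap, so the genes shown are not typical of the members. The gap is narrow for Ndufs1, Sdha, Atp5a1 and Atp5d, and Ndufa4l2 alone is higher in the knockout, with 16.6 in library 4.

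Complex III and cytochrome c showed smaller differences. Of the 8 complex III genes 7 had a log2 fold change below 0, with a median of -0.04. Uqcr11, a small subunit and the most abundant gene of the complex per length, was 131, 125 and 125 normalized CPM in FFA2 fl/fl against 124, 105, 123 and 90.6 in Adipoq-F2-KO, without overlap by a narrow margin (log2 fold change -0.20 ± 0.11, SE, edgeR adjusted p = 0.383). Uqcrc1, a core protein of the complex, was 175 ± 10.6 (SD, n = 3) and 153 ± 17.0 normalized CPM (SD, n = 4), and the Rieske iron-sulfur protein Uqcrfs1 was 97.0 ± 2.79 and 85.9 ± 6.81. Both overlapped, with knockout library 3 highest of the knockout libraries at 169 and 95.4. For Uqcrc1 knockout library 1, at 164, also lay above the lowest control library, at 163. Cycs, the mobile carrier cytochrome c, was 71.1 ± 4.22 and 72.9 ± 5.31 normalized CPM, a log2 fold change of 0.04 with a 95% interval from -0.17 to 0.24.

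In complex IV alternative forms of several subunits could be followed. Of its 17 tested genes 11 had a log2 fold change below 0, with a median of -0.03, and none was lower without overlap. Cox5b was 192 ± 11.1 normalized CPM in FFA2 fl/fl (SD, n = 3) and 169 ± 13.8 (SD, n = 4) in Adipoq-F2-KO (edgeR adjusted p = 0.322), and Cox6a1 was 266 ± 12.3 and 238 ± 20.8 (edgeR adjusted p = 0.396). Cox8a, the most abundant member of all per length, was 257 ± 10.7 and 234 ± 17.5. Cox6b1 was 189.5 ± 17.1 and 174 ± 2.95, with overlapping libraries.

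Ndufa4l2, a paralog of the complex IV subunit Ndufa4 that is known to be induced when oxygen is low, was the only member whose knockout libraries all lay above the control libraries. It was 9.83, 10.9 and 10.3 normalized CPM in FFA2 fl/fl against 12.5, 11.9, 13.3 and 16.6 in Adipoq-F2-KO. Its log2 fold change was 0.39 ± 0.15 (SE), with an edgeR adjusted p of 0.196 that ranged from 0.183 to 0.474 over the alternatives. Ndufa4 itself was 128 ± 7.83 (SD, n = 3) and 133 ± 3.41 (SD, n = 4). Per length, Ndufa4l2 made up 8.42, 10.3 and 9.11% of the Ndufa4 and Ndufa4l2 total in FFA2 fl/fl and 10.6, 10.4, 10.8 and 13.7% in Adipoq-F2-KO, so FFA2 fl/fl library 2 and knockout library 2 all but met. Cox4i2, the alternative form of Cox4i1 best known from lung and from low oxygen, was 2.70, 3.60 and 4.22 normalized CPM against 4.42, 3.10, 4.31 and 7.60 (log2 fold change 0.47 ± 0.31, SE, edgeR adjusted p = 0.457). Its share of the pair was between 1.78 and 2.91% in FFA2 fl/fl and between 2.52 and 3.09% in knockout libraries 1 to 3, and 6.42% in knockout library 4. Both genes are also known from the mural cells of blood vessels, for which no list was measured. The summed level of 8 endothelial markers was between 1000.5 and 1312 normalized CPM in FFA2 fl/fl and between 1379 and 2159 in Adipoq-F2-KO. All 8 endothelial markers had a log2 fold change above 0, their median was 0.47 and 0 were called in edgeR. For 3 of them every knockout library lay above every control library, where 8.86% of all tested genes did so. Any part of vessel cells in the values of Ndufa4l2 and Cox4i2 was not tested.

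The muscle and testis forms of complex IV subunits stood at low levels, some of them at 0 counts in most libraries. Cox7a1, the form of heart, skeletal muscle and brown fat, was between 1.36 and 3.36 normalized CPM and made up 1.84 to 4.43% of the Cox7a1, Cox7a2 and Cox7a2l total per length, highest in FFA2 fl/fl library 1 and lowest in knockout library 4. Cox7a2 held 58.0 to 61.2% of that total in all libraries, and Cox7a2l, known for its part in joining complexes III and IV, held 36.0 to 40.1%. Cox6a2 had 10 counts in FFA2 fl/fl library 2 and 0 in the other 6 libraries. Cox7b2 and Cox8c, forms of the testis, each had 12 counts in Adipoq-F2-KO library 2, 2 counts in library 3 and 0 in the other 5 libraries. The 7 male germ cell markers summed to 144 normalized CPM in Adipoq-F2-KO library 2 and stayed at or below 2.67 in all FFA2 fl/fl libraries. Cox6b2, a further testis form, was detected at between 0.486 and 1.76 normalized CPM in every library and was lowest in Adipoq-F2-KO library 2.

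**Figure D3:**
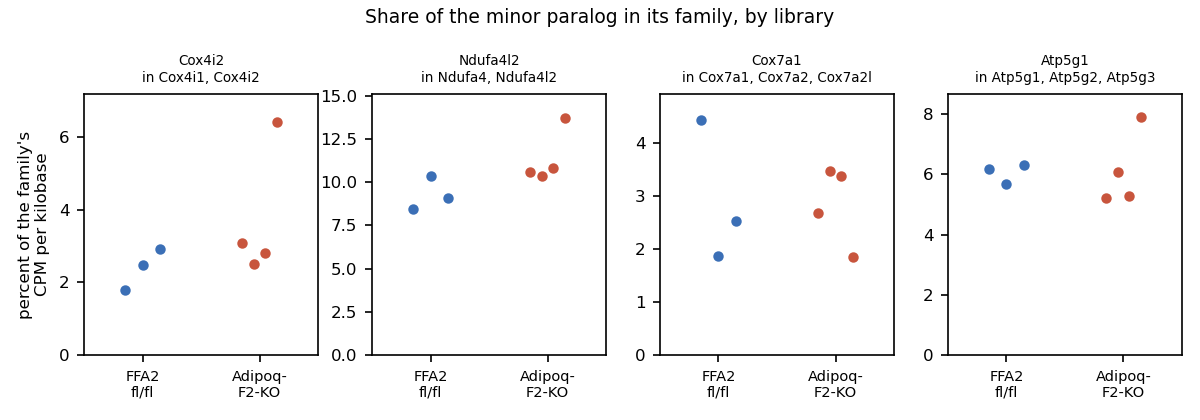
Share of the less abundant form in its family (percent of the family's CPM per kilobase, vertical axis from 0) for Cox4i2, Ndufa4l2, Cox7a1 and Atp5g1, with 1 point for each library. Adipoq-F2-KO library 4 is highest for Cox4i2, Ndufa4l2 and Atp5g1, at 6.42, 13.7 and 7.89%.

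In complex V the subunits of the F1 head, which makes ATP, had a lower median than those of the membrane part, a difference that was not tested. The 5 F1 genes had a median log2 fold change of -0.19 and 3 were lower without overlap. The 11 tested genes of the membrane part and stalk had a median of -0.04 and none was lower without overlap. Of all genes with at least 10 normalized CPM, 14.4% were lower without overlap. The catalytic subunit Atp5b was 1556, 1454 and 1506 normalized CPM in FFA2 fl/fl against 1384, 1258, 1411 and 1198 in Adipoq-F2-KO. The highest knockout library, 3, lay under the lowest control library, 2. Its log2 fold change was -0.20 ± 0.09 (SE, edgeR adjusted p = 0.294). Atp5a1, its partner in the head, was 951, 850.2 and 869 normalized CPM against 836, 759, 827 and 699 (log2 fold change -0.19 ± 0.10, SE, edgeR adjusted p = 0.327). Atp5d, a subunit of the central stalk of F1, was 241, 234 and 239.8 against 212, 199, 233 and 172, with knockout library 3 level with the lowest control (edgeR adjusted p = 0.298). Subunit c, the proton-carrying ring of the membrane part, is made from 3 genes whose mature proteins are identical. Atp5g3 held 70.8 to 76.9% of their total per length, Atp5g2 17.6 to 21.3% and Atp5g1 5.21 to 7.89%, and all 3 ranges overlapped between genotypes. The fitted log2 fold changes of Atp5g1, Atp5g2 and Atp5g3 were -0.04, 0.00 and -0.04, and their signs changed with the analysis. Atp5s, the coupling factor, was 5.59 ± 0.487 (SD, n = 3) and 6.09 ± 0.753 normalized CPM (SD, n = 4).

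Summed over genes, the nuclear members came to 10758, 9931 and 10346 normalized CPM in FFA2 fl/fl against 9819, 9166, 9957 and 8792 in Adipoq-F2-KO, with means of 10345 ± 414 (SD, n = 3) and 9434 ± 550 (SD, n = 4). FFA2 fl/fl library 2 and knockout library 3 overlapped. The sums of complex I core subunits did not overlap, at 789, 737 and 751 normalized CPM against 676, 653, 690.3 and 611, and neither did those of the accessory subunits of complex I and of complex II. The accessory sums were separated narrowly, with 1853 normalized CPM in the lowest control library and 1848 in the highest knockout library. Adipoq-F2-KO library 4 was the lowest library for 38 of the 93 tested members and Adipoq-F2-KO library 2 for 21, while FFA2 fl/fl library 1 was the highest for 46. Without knockout library 4 the count of members lower without overlap was 22 of 93, with 10.3% of all genes, and without knockout library 2 it was 20, with 11.3% of all genes. Without FFA2 fl/fl library 2 it was 35, with 14.1% of all genes. Leaving out a library can only keep or raise such a count, so these counts do not test whether it rests on single libraries.

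Markers of the adipocyte itself were lower in the group mean as well, though they did not follow the member sums library by library. FFA2 fl/fl library 1 had the lowest marker sum of the controls, 58278 normalized CPM, and the highest member sum. The 10 adipocyte markers summed to between 58278 and 64662 normalized CPM in FFA2 fl/fl and between 48199 and 59542 in Adipoq-F2-KO, 9 of the 10 had a log2 fold change below 0, their median was -0.25 and 0 were called in edgeR. The exception was Pparg, the master regulator of fat cells, which was 205 ± 15.1 (SD, n = 3) and 247 ± 18.8 normalized CPM (SD, n = 4), with every knockout library above the controls (edgeR adjusted p = 0.178). Adipoq was lowest in knockout library 4, at 2419 normalized CPM, as were 38 of the 93 tested members. Divided by the summed level of these markers, the members came to 185, 159 and 160.0 per 1000 in FFA2 fl/fl against 184, 162, 167 and 182 in Adipoq-F2-KO, with group means of 168 ± 14.6 (SD, n = 3) and 174 ± 11.0 (SD, n = 4). On that scale the groups overlapped for every complex, with complex I core at 0.985 and complex II at 0.994 of the control mean. This ratio was added after the values were seen. Markers of macrophages lay higher in Adipoq-F2-KO, with sums of 487 to 635 against 699.7 to 891 normalized CPM. Of the 10 markers 9 lay above 0 and 2 were called, Lyz2 and Cd68, where 0.798% of all tested genes were called higher. The 8 progenitor markers summed to between 848 and 1128 in FFA2 fl/fl and between 1208 and 1445 in Adipoq-F2-KO, with 7 above 0 and 0 called. In bulk RNA fewer adipocytes and less of these transcripts per adipocyte cannot be told apart.

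**Figure D4:**
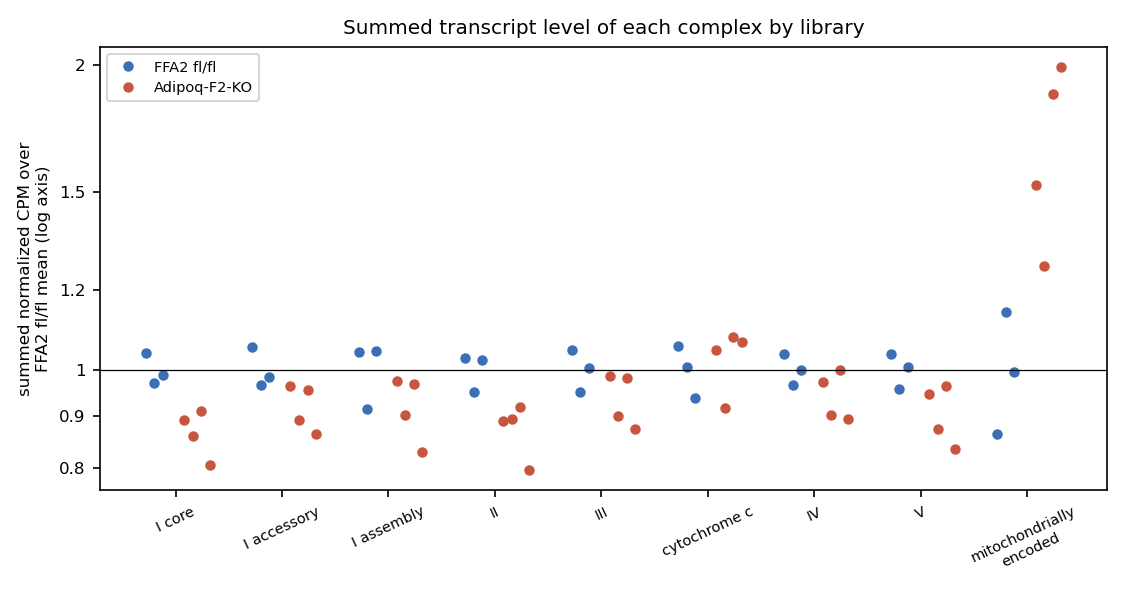
Summed normalized CPM of each group of genes in each library, divided by the FFA2 fl/fl mean (vertical axis, log scale). FFA2 fl/fl is in blue and Adipoq-F2-KO in red. The groups separate downwards for complex I core, by a narrow margin for complex I accessory, and for complex II, and upwards for the mitochondrially encoded subunits.

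The 13 subunits encoded by mitochondrial DNA went the other way from their nuclear partners. Their summed level was 40994, 54132 and 47180 normalized CPM in FFA2 fl/fl against 72252, 60096, 88926 and 94479 in Adipoq-F2-KO. All 13 had a log2 fold change above 0, with a median of 0.76, and an edgeR unadjusted p under 0.05. Of these 10 did not overlap and 2 were called. Over all tested genes 10.5% were higher at an unadjusted p under 0.05, 8.86% were higher without overlap and 0.798% were called higher. The called genes, mt-Nd1 and mt-Nd2, are core subunits of complex I, with log2 fold changes of 0.82 and 0.81 and edgeR adjusted p of 0.0458 and 0.0383. The mitochondrially encoded sum was 3.81, 5.45 and 4.56 times the nuclear sum in FFA2 fl/fl and 7.36, 6.56, 8.93 and 10.7 times in Adipoq-F2-KO. In the FFA2 fl/fl mean these genes ranged from 10.1 normalized CPM for mt-Atp8 to 13948 for mt-Co1, so the sums rest mostly on the abundant ones. Loss of reads shared with other parts of the genome was not tested. Library 4 of the knockout, with the highest mitochondrial level, also had the lowest nuclear sum. Leaving genes of the mitochondrial chromosome and the most abundant unnamed identifier out of the library sizes left the median of the nuclear members at -0.09. The mitochondrially encoded list changed with single libraries. It had 0 calls without any of FFA2 fl/fl libraries 1, 2 or 3 or knockout libraries 2 or 3, and 1 without knockout library 1.

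Genes that work beside the respiratory chain were lower in the mean as well. All 17 genes of the citric acid cycle and pyruvate dehydrogenase list had a log2 fold change below 0, with a median of -0.17, 7 did not overlap and 0 were called in edgeR, and 5 had an unadjusted p under 0.05. Over all tested genes 49.6% lay below 0, 8.72% were lower without overlap and 7.37% were lower at an unadjusted p under 0.05, and at 10 or more normalized CPM the first and the second of these shares were 58.1 and 14.4%. From the citric acid cycle list Cs, citrate synthase, was 416 normalized CPM in FFA2 fl/fl against 385 in Adipoq-F2-KO on average (edgeR adjusted p = 0.504). Of 18 tested genes that carry electrons beside the complexes or make ubiquinone, a list that also holds Cyc1, 17 lay below 0 with a median of -0.21 and 0 were called. Prodh, proline dehydrogenase, had the smallest p of that list, with 90.1 and 56.1 normalized CPM and an edgeR adjusted p of 0.0556. It was the 1 gene of the list called by DESeq2, by limma voom and by the edgeR fit of genes with at least 1 count. Of 44 tested assembly factors outside the name rule, 37 lay below 0 with a median of -0.13 and 0 were called, and the lowest p belonged to Dmac2, an assembly factor of the membrane arm of complex I (13.3 and 9.55 normalized CPM, edgeR adjusted p = 0.104). A list of carriers of ADP, ATP and phosphate had 7 of 9 below 0 and a median of -0.11. It also holds the uncoupling proteins Ucp1, Ucp2 and Ucp3 and the outer membrane channels Vdac1, Vdac2 and Vdac3. The tested carriers proper, Slc25a4, Slc25a5 and Slc25a3, had log2 fold changes of -0.19, 0.04 and -0.005. The 7 tested genes of mitochondrial peroxide defence had 6 below 0 and a median of -0.17, and Nnt, the transhydrogenase, was at 0 in 5 libraries and at 0.0502 and 0.339 normalized CPM in knockout libraries 1 and 4. The level that 3 fragments give was 0.150 to 0.197 CPM in these libraries, so the value of library 1 lay under it and that of library 4 above it.

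The regulators of mitochondrial genes had a median near 0. Of 23 tested genes 12 lay above 0 and 11 below, with a median of 0.02 and 0 called in edgeR. An edgeR unadjusted p under 0.05 was seen for 4 of the 23 and for 17.9% of all tested genes. In this list 3 genes were lower and 2 higher without overlap, where 8.72 and 8.86% of all tested genes were. Pprc1, a coactivator related to PGC-1, was 35.0 and 62.6 normalized CPM on average (log2 fold change 0.84, edgeR adjusted p = 0.0540), and Gabpb1, a partner of the ETS factor GABPA, was 14.9 and 22.2 (log2 fold change 0.57, edgeR adjusted p = 0.107). Polrmt, the RNA polymerase of mitochondria, had a log2 fold change of -0.45 (edgeR adjusted p = 0.156) without overlap. The best known coactivator, Ppargc1a, was 4.68 and 4.75, and the mitochondrial DNA packaging factor Tfam was 17.0 and 17.5. DESeq2 called 2 genes of this list, Pprc1 and Gabpb1, and the edgeR fit without knockout library 1 called Pprc1 and Polrmt. Pprc1 was also called without knockout library 4.

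Compared per length, the tested members spanned from 0.768 to 394. As normalized CPM per kilobase of summed exon length, Cox8a led with 394 ± 29.7 (SD, n = 7), followed by Cox6a1 with 357 ± 31.6 and Atp5b with 329 ± 30.4, 3 neighbours whose ranges of 1 SD touch. Among the most abundant genes of the other groups were Uqcr11 with 183 ± 22.4, Ndufa2 with 138 ± 9.10 and Sdha with 128 ± 11.4. The assembly factors stood lowest, with a median of 4.65 and Ndufaf8 highest at 10.9 ± 1.09. The medians were 68.4 for complex III, 59.3 for complex II, 55.7 for complex IV, 44.9 for accessory and 35.9 for core subunits of complex I, and 35.0 for complex V. In complex II the flavoprotein Sdha stood above Sdhd at 66.7, Sdhb at 52.0 and Sdhc at 37.4, although the enzyme holds 1 copy of each. The lowest tested gene was Ndufb2 at 0.768 ± 0.134, whose summed exon length in the table, 5628 bases, was far above the members' median of 1587. Levels per length depend on such annotated lengths.

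**Figure D5:**
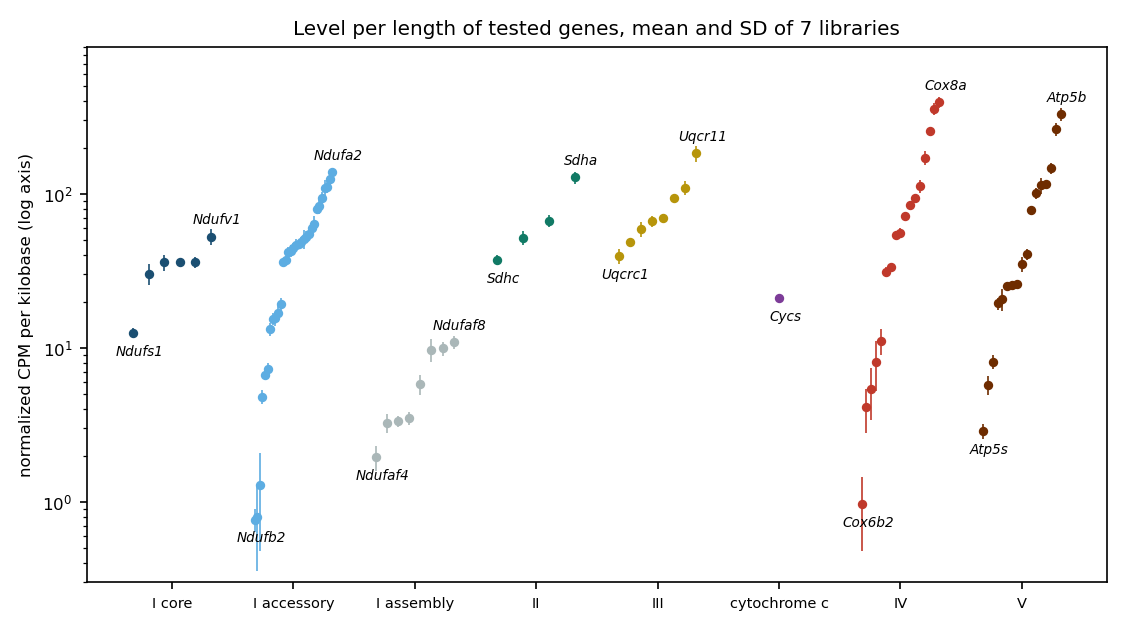
Mean level per length over all 7 libraries with its SD (normalized CPM per kilobase, log axis) for 92 of the 93 tested members, grouped by complex and ordered within it. Named genes are the highest or lowest shown of their group, from Cox8a at 394 down to Ndufb2 at 0.768.

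The promoters of the members hold motifs that are known from nuclear genes of mitochondria. Promoter windows of 300 bases, from 250 before to 50 after the start, were available from RefSeq (GRCm38.p6) for 74 of the 97 symbols. The core bound by NRF1, taken as GCGCA, any 1 base and GCGC, was found on either strand for 19 of 74 members (25.7%) and for 5.19% of all genes in the table. CCGGAAG, an ETS core as bound by GABPA, was found for 18 members (24.3%) and 9.93% of all genes, and AAGATGGC, a YY1 core, for 10 members (13.5%) and 3.19% of all genes. TATAAA was found for 8.11% of members and 15.7% of all genes. The NRF1 and ETS cores did not overlap each other in the sequences shown. Among the 15 matched members that were lower without overlap, 3 held the NRF1 core, 4 the ETS core and 1 the YY1 core, against 16, 14 and 9 of the other 59. These counts are too small to read a direction from them. To show these elements in the genes described above, the 150 bases before the start are given for the complex II genes with a window in the table and for the 3 complex I core genes of smallest edgeR p, 5′ to 3′ on the gene's strand, with NRF1 and ETS cores of either strand in capitals.

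The windows in GRCm38.p6 were Sdha at chr13:74350241-74350390, minus strand, Sdhb at chr4:140961121-140961270, plus strand, Sdhd at chr9:50603850-50603999, minus strand. Those of the complex I genes were Ndufs7 at chr10:80249299-80249448, plus strand, Ndufs3 at chr2:90904722-90904871, minus strand, Ndufv1 at chr19:4012756-4012905, minus strand.
Sdha: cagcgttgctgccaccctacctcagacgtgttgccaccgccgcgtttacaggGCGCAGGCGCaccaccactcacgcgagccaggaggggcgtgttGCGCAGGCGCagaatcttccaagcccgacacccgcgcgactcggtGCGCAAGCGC
Sdhb: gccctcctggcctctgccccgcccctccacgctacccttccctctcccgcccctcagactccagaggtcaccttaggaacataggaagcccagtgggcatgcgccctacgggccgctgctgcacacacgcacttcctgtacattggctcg
Sdhd: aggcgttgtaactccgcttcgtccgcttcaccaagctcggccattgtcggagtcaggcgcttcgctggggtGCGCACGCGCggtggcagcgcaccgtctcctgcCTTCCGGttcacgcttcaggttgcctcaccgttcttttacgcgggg
Ndufs7: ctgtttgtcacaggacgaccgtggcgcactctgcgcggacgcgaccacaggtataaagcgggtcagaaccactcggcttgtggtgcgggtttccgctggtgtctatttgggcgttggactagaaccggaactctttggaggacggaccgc
Ndufs3: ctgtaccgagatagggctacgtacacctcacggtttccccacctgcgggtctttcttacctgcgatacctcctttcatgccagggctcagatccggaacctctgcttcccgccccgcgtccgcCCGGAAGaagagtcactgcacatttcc
Ndufv1: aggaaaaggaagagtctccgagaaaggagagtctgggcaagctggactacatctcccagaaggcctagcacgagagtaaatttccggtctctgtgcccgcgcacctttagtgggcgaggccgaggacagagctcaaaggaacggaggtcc

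Sdha held 3 NRF1 cores, starting 98, 55 and 10 bases before the start of transcription in the table, the densest of these windows. Sdhd held 1 NRF1 core 79 bases and 1 ETS core 46 bases before the start, and Ndufs3 held 1 ETS core 27 bases before the start. The 150 bases of Sdhb, Ndufs7 and Ndufv1 held neither, although the full window of 300 bases of Sdhb held an ETS core outside the stretch shown. All 6 genes shown were lower without overlap, so they cannot show whether the fold change differs with a core.

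Across the 93 tested members the log2 fold change was related weakly to level and base composition. Spearman's rho with the mean level was -0.33, and it was -0.18 across all tested genes. With GC content it was -0.26 across members and -0.16 across all genes, and with summed exon length -0.15 and 0.05. These are descriptions across genes that share the same 7 libraries, and genes are not independent replicates.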

How the data were processed

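The deposited table holds raw counts per gene, which the authors made from paired-end, stranded poly-A libraries. The submitters' processing notes name Trimmomatic, STAR, featureCounts and DESeq2 with the GRCm38 (mm10) build, and versions and counting options are not given in the sources used here. Between 85.5 and 88.8% of counts below 50 were even, so a fragment was taken as 2 counts, and the floor of 3 fragments (6 counts) was 0.150 to 0.197 CPM. This covers counting error only. Only 1409 of 52029 identifiers had the coordinates of a GRCm38 annotation, so positions from the count table were not used. Near-identical pseudogenes (9 symbols left out) and overlapping genes may share reads with members, and those counts are uncertain.

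Counts were tested with edgeR 4.0.16 (R 4.3.3) in a two-sided quasi-likelihood test with filterByExpr, TMM scaling and genotype as the only term. Benjamini-Hochberg adjustment was over all 17039 tested genes, and a gene was called at an adjusted p under 0.05. The common biological coefficient of variation was 0.258. All 7 count columns were used, and all pairs of libraries of a genotype differed by more than sampling noise (chi-square divided by its degrees of freedom, 39.7 to 163). DESeq2 1.42.0, limma voom 3.58.1, other scale factors and filters, a replicate block and leaving out each library were alternatives. The script was tested on simulated data. In them 200 genes were changed by a log2 fold change of 1 up or down. Of edgeR calls 6.05% were false, of DESeq2 calls 14.8% and of limma voom calls 4.90%. The tools called 59.5, 62.3 and 58.2% of the changed genes, in that order. Changes as small as those fitted in most members were not simulated. The members and all gene lists were chosen with earlier results of these data known. Genes were named if called, among the 3 smallest p or at the ends of the level order in their complex, in a paralog family, or in complex II or Cycs. Results of 2 genes that this rule or the lists would name are not reported here. Promoter sequences and motif shares came from a RefSeq table of GRCm38.p6.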

Additional observations from a re-analysis of the deposited data

Results flagged for a closer look

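Of the 41 tested genes named by the rule, 3 had a knockout library set apart from the other 3 by a gap above Dixon's 95% critical value for the group's range. Chance flags about 1 in 20 groups. The values are normalized CPM. Atp5g1, a gene for subunit c of ATP synthase, was 47.1 in Adipoq-F2-KO library 4 and 36.2 to 38.0 in the others. Cox6b1, a subunit of complex IV, was 169.7 in library 4 and 175 to 176 in the others, a gap of small size. Ndufs1, a core subunit of complex I, was 103 in library 1 and 92.3 to 94.1 in the others. Library 4 was thus set apart for 2 of the 3 genes, higher for Atp5g1 and lower for Cox6b1.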

How the results depend on the processing

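No nuclear member was called in any of the 14 alternatives, and the median log2 fold change of the members stayed between -0.13 and -0.06 when 1 library was left out and was -0.08 with the replicate block. Over all tested genes the number called was 173, 1403 with a filter of at least 1 count, 890 in DESeq2, and 1 to 178 when 1 library was left out. The count was 1, 41 and 5 on leaving out FFA2 fl/fl libraries 1, 2 and 3 and 178, 11, 20 and 166 on leaving out Adipoq-F2-KO libraries 1 to 4, so the count of calls rests on single libraries. Over the lists of mitochondrial genes outside the members, 2 genes were called, 20 with at least 1 count, 13 in DESeq2, 6 in limma voom, 0 without genes of the mitochondrial chromosome, which removes the called genes, and 0 to 4 when 1 library was left out. Replicate numbers did not pair the libraries, since deviations of same-numbered libraries correlated at 0.03, -0.02 and -0.02. With the replicate block 224 genes and 4 genes of these lists were called. Of 574 values of named members over the alternatives, 21 changed sign, all of them far from a call. Atp5g2 became 0.0032 with RLE factors, 0.0026 in DESeq2 and 0.0051 in limma voom. With the replicate block Atp5g3 became 0.021, Cox6b2 -0.073, Cox7a1 0.16 and Ndufaf8 0.0069. With 1 library left out Atp5g1 ranged from -0.13 to 0.027, Atp5g2 from -0.054 to 0.090, Atp5g3 from -0.090 to 0.024, Cox6b2 from -0.012 to 0.71, Cox7a1 from -0.34 to 0.31, Cox7a2 from -0.075 to 0.011, Cox7a2l from -0.085 to 0.0030, Ndufaf4 from -0.26 to 0.025 and Ndufaf8 from -0.11 to 0.060. The cause of these changes was not tested. Levels of genes under 10 normalized CPM rest on few fragments, and with 3 and 4 libraries differences of the fitted size in the members were below what the adjusted test called.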

Other observations

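Several genes of the same complexes carry symbols outside the name rule and were looked up after the values of the members were seen. Cyc1, cytochrome c1 of complex III, was 132 ± 10.8 normalized CPM in FFA2 fl/fl (SD, n = 3) and 116 ± 19.7 in Adipoq-F2-KO (SD, n = 4), with overlapping libraries (edgeR adjusted p = 0.470). Usmg5, a small subunit of ATP synthase, was 27.5, 26.9 and 29.1 in FFA2 fl/fl and 35.8, 29.4, 33.9 and 35.1 in Adipoq-F2-KO. Every knockout library lay above the control libraries, with a log2 fold change of 0.27 ± 0.10 (SE, edgeR adjusted p = 0.206). Atpif1, the inhibitor of ATP synthase, was 5.25 ± 0.695 (SD, n = 3) and 6.81 ± 1.71 (SD, n = 4), with 9.29 in knockout library 4 (edgeR adjusted p = 0.396). Ndufb1-ps carries a pseudogene symbol although it had between 652 and 908 counts in every library, and stood at 21.2 ± 3.30 and 22.7 ± 1.90 normalized CPM.

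Among markers of other cells, 4 of 5 tested brown adipocyte markers had a log2 fold change above 0, with a median of 1.06, 0 called in edgeR and Zic1 at 0 in all libraries. Their summed level was 5.90 to 8.38 normalized CPM in FFA2 fl/fl and 5.41 to 15.9 in Adipoq-F2-KO. Only 1 of the 5 was higher without overlap, where 8.86% of all tested genes were. Ucp1 was 0.267, 0.882 and 0 normalized CPM in FFA2 fl/fl and 0.151, 0.122, 0.885 and 5.02 in knockout libraries 1 to 4. Its higher mean thus rests on knockout library 4. The 5 erythroid markers all lay above 0, at a summed 97.6 to 223 and 209 to 372 normalized CPM. Of the 4 tested male germ cell markers all lay above 0, and their sum was 2.71 to 144 normalized CPM in Adipoq-F2-KO. Skeletal muscle markers (3 tested, Ckm at 0) had a median of -0.43 and mesothelial markers (5 tested) a median of -0.22, with 0 called in each.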
